A study of Homo sapiens with 6 samples.

Results

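The BCL2 family sets the threshold at which a cell permeabilizes its mitochondria and enters intrinsic apoptosis. Pro-survival members hold the effector proteins BAK and BAX in check, and the BH3-only members, which share a short helix called BH3, relieve that restraint by binding the pro-survival proteins or by activating the effectors directly. Several members are regulated through the abundance of their transcripts, while others, BAD and BID among them, are known mainly for regulation of the protein by phosphorylation or cleavage. Transcript levels of 10 members were examined: the pro-survival genes BCL2, BCL2L1 (BCL-XL), BCL2L2 (BCL-W) and MCL1, the effector gene BAK1, and the BH3-only genes BID, BAD, BIK, BMF and BCL2L11 (BIM). The members were chosen by gene symbol, and all 10 symbols were found among the 23228 gene rows of the expression table.

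The values come from polyA RNA of SaOS-2 cells, an osteosarcoma line described as null for RB and p53, which carried a doxycycline-inducible p21 vector. The 3 p21_OFF libraries were from untreated cells, and the 3 p21_ON libraries were from cells given doxycycline at 1 µg/ml for 24 h according to the sample labels. p21, the product of CDKN1A, inhibits cyclin-dependent kinases, so the comparison asks how transcripts of the apoptosis regulators stand when p21 is induced by itself. All libraries carry the vector, and no library of cells given doxycycline without it was analyzed here, so the drug and p21 cannot be told apart. CDKN1A rose from 1266 ± 84.5 to 43691 ± 3138 normalized counts (SD, n = 3 each), so it matched the labels of the groups in every library. Reads of the vector and of the cells' own gene are counted together in that value.

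Values are normalized counts, that is, reads on a gene divided by the size factor of the library. Between 12795490 and 21975045 reads fell on genes in a p21_OFF library and between 12918390 and 16630552 in a p21_ON library. Among the markers of the osteoblast lineage, RUNX2, SP7, ALPL and COL1A1 were abundant (3028 to 38901 normalized counts over all libraries), IBSP lay between 95.5 and 139 (lower in p21_ON, -0.38, limma adjusted P = 0.0264), COL1A2 and SPP1 did not exceed 4.87 and BGLAP was listed at 0. Of the 7 markers of other cell types, EPCAM had 292 to 374 normalized counts and none of the other 6 exceeded 31.4. RB1 had 497 to 697 normalized counts, so reads on the RB1 transcript were present. In bulk RNA a lower level in each cell and fewer cells that express the gene cannot be told apart. The labels do not say whether the libraries of a group came from separate cultures, so the tests measure the spread between these libraries.

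After p21 induction BCL2 rose 1.43-fold, and smaller changes that passed the threshold narrowly were found for BCL2L11 (1.17-fold), BMF (1.15-fold) and MCL1 (0.896-fold). BCL2L1, BCL2L2, BAK1, BID and BAD did not pass the test, and BIK was too weakly expressed to be tested. With limma on log2(normalized count + 1) and a Benjamini-Hochberg adjusted P value under 0.05, 3 of the 9 members tested were higher in p21_ON cells and 1 was lower. Over all 13255 genes tested, 10.5% were called higher and 12.7% lower. The median log2 fold change of the 9 members was 0.042 against 0.0056 for all genes, and the median size of the change regardless of sign was 0.14 against 0.15. The 3 p21_ON libraries lay wholly above the p21_OFF libraries for 2 of the 9 members and wholly below for 1, where 19.1% and 21.3% of all genes tested did so. The counts for the family are too small to set it apart from other genes, and the members are described by role.

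**Figure D1:**
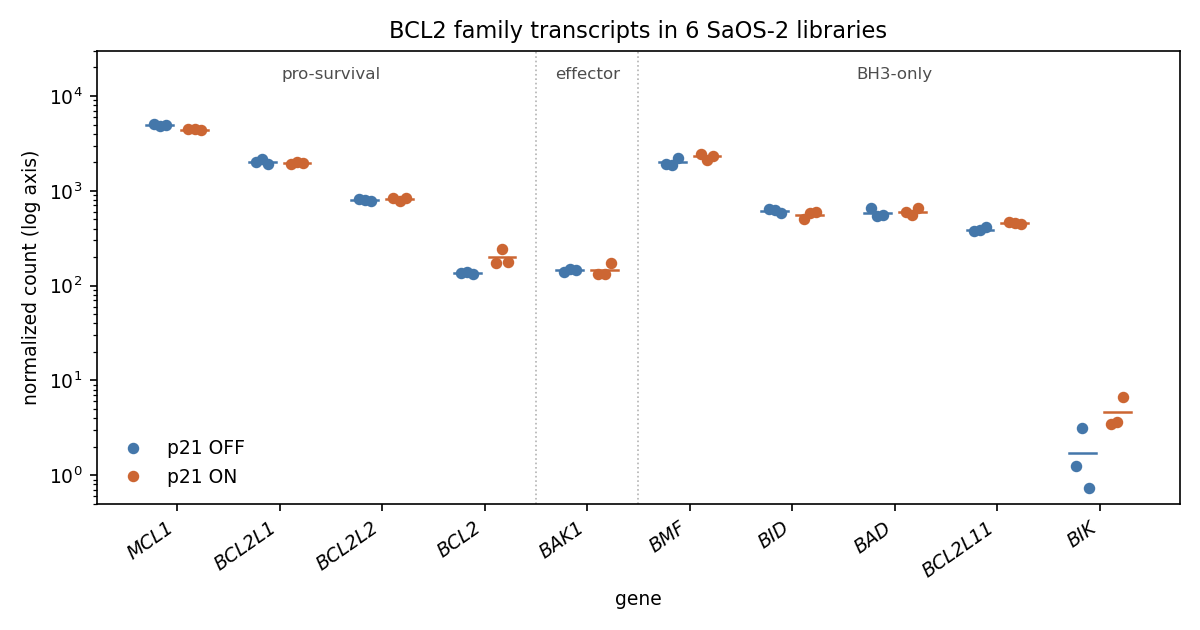
Normalized counts (log axis) of the 10 members in each library, with p21_OFF in blue, p21_ON in orange, a point for each library and a line at the group mean. MCL1 has the most reads and BIK the fewest, and the p21_ON points of BCL2 (172 to 244) stand above its p21_OFF points (133 to 138).

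BCL2, the founding pro-survival member, lies on chromosome 18 of GRCh37 (60790579 to 60987361, minus strand) and its canonical transcript has 3 exons. It had 137, 138 and 133 normalized counts in p21_OFF replicates 1 to 3 and 172, 244 and 178 in p21_ON replicates 1 to 3. The groups did not overlap, and p21_ON replicate 2 was the highest library by a wide margin, so that the standard deviation was 2.70 around a mean of 136 without p21 and 39.8 around a mean of 198 with it. The log2 fold change was 0.52 (standard error 0.13, 95% interval 0.25 to 0.78, limma adjusted P = 0.00688). Without p21_ON replicate 2 it was 0.36 and remained past the threshold (adjusted P = 0.0433). BCL2 was called higher with each of the 6 libraries left out in turn and under each of the 14 other settings tried, with adjusted P values up to 0.0433 and 0.0159. These values rest on 109 to 200 reads in a library. By unadjusted P value BCL2 ranked 1262 of the 13255 genes and by the size of its change 1024.

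MCL1 encodes a short-lived pro-survival protein. The gene is on chromosome 1 (150533371 to 150552214, minus strand) and was the member with the most reads, 3707 to 6730 in a library. Its normalized counts were 5054, 4806 and 4975 in p21_OFF and 4444, 4517 and 4326 in p21_ON. Every p21_ON library lay below every p21_OFF library, and the mean was 4945 ± 127 without p21 and 4429 ± 96.0 with it (SD, n = 3 each). The fitted level fell by 10.4%, with a log2 fold change of -0.16 (standard error 0.056, 95% interval -0.28 to -0.041, limma adjusted P = 0.0492). Although the groups were separate, the call was narrow: it was lost without p21_OFF replicate 2 or 3 (adjusted P = 0.0698 and 0.111) and without p21_ON replicate 1, 2 or 3 (0.145, 0.0734 and 0.145), with log2 fold changes of -0.18 to -0.14. It was also lost with edgeR on the reads (adjusted P = 0.0535) and under scaling by library size alone, which gave -0.11 (adjusted P = 0.145).

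The other pro-survival genes did not pass the test. BCL2L1, whose transcript is spliced to a long pro-survival and a short pro-apoptotic form that counts per gene do not separate, lies on chromosome 20 (30252255 to 30311792, minus strand). It had 1997, 2162 and 1913 normalized counts in p21_OFF and 1895, 1997 and 1969 in p21_ON. Its groups overlapped, and the log2 fold change of -0.049 had a 95% interval of -0.18 to 0.083 (adjusted P = 0.603 from limma). Of the BCL2L1 exon sequence, 41.3% is also annotated on the opposite strand to the long noncoding RNA ABALON, and the strand setting of the counting is not given in the sources used here. BCL2L2, on chromosome 14 (23767999 to 23780960, plus strand), had 810.0, 792 and 786 normalized counts in p21_OFF and 839, 787 and 833 in p21_ON. Its p21_OFF libraries had the lowest coefficient of variation of the 10 members (1.55%), the groups overlapped, and the log2 fold change was 0.042 (95% interval -0.098 to 0.18, adjusted P = 0.681 from limma). BCL2L2 shares 16.8% of its exon sequence on the same strand with the readthrough gene BCL2L2-PABPN1, which has a row of its own that was listed at 0 in every library, so how reads in the shared exons were assigned affects the level of BCL2L2.

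BAK1 encodes the effector BAK, which oligomerizes in the outer mitochondrial membrane. The gene is on chromosome 6 (33540324 to 33548070, minus strand). It had 139, 148 and 146 normalized counts in p21_OFF and 133, 134 and 173 in p21_ON. A pair of p21_ON libraries lay below all p21_OFF libraries and p21_ON replicate 3 lay above them. The log2 fold change was 0.010 (standard error 0.12, 95% interval -0.24 to 0.26, adjusted P = 0.963 from limma), and its sign turned without p21_ON replicate 3 (-0.11) or p21_OFF replicate 1 (-0.015). The interval does not exclude a change of the size seen for BCL2L11 or BMF in either direction.

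**Figure D2:**
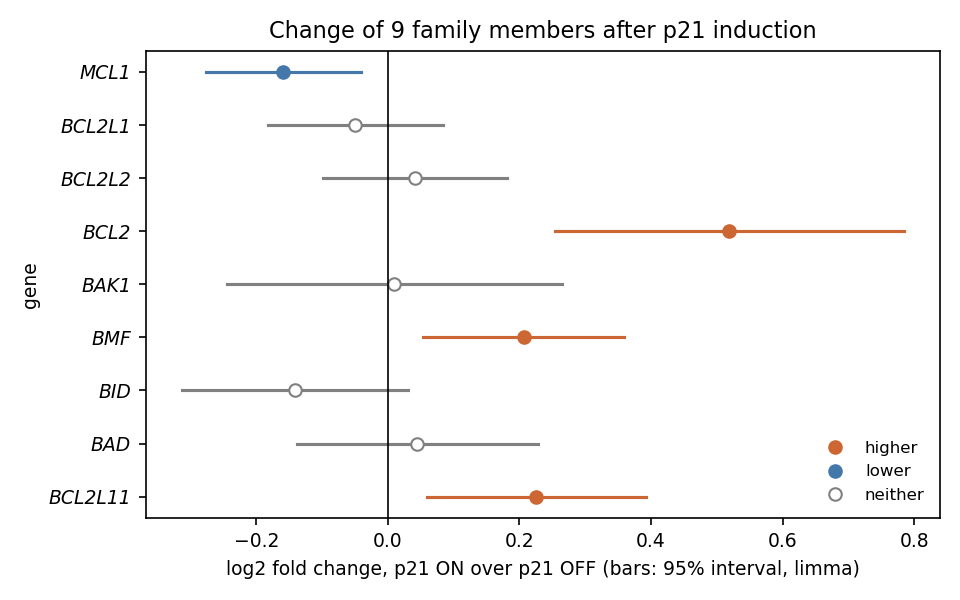
Log2 fold change of p21_ON over p21_OFF for the 9 members tested, with bars for the 95% interval from limma and filled points for an adjusted P value under 0.05. The interval of BCL2 (0.25 to 0.78) is clear of 0, those of BMF, BCL2L11 and MCL1 end near it, and the other 5 cross it.

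BCL2L11 and BMF encode the BH3-only proteins BIM and BMF, which bind pro-survival proteins. In healthy cells they are held by dynein light chains, BIM by DYNLL1 and BMF by DYNLL2. Both genes were called higher, and the sequences before their start sites are shown, 5′ to 3′ on the strand of the gene, from the GRCh37 genome. BCL2 was also called higher, but all 250 bases before its canonical start are annotated exon, so none is shown for it. The sequence of MCL1, called lower, is not shown either. The stretches run from 250 bases before the start of the canonical GENCODE transcript to the base before it for BCL2L11 (chr2:111878241-111878490, plus strand) and to the last base before any annotated exon for BMF (chr15:40401094-40401330, minus strand). Capitals mark matches to the motifs described next.
BCL2L11: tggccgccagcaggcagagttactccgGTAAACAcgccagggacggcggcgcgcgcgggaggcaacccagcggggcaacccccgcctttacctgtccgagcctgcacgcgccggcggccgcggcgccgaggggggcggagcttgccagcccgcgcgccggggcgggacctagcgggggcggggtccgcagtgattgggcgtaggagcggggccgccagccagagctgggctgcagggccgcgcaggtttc
BMF: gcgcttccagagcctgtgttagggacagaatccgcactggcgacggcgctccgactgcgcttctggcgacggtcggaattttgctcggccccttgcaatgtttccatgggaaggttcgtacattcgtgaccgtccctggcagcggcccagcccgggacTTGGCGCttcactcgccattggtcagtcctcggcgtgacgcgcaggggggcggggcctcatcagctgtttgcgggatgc

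Motifs were searched on both strands from 250 bases before to 50 bases after the canonical start. The CHR (TTTGAA or TTCGAA), an element of late cell cycle promoters, was in none of the 10 members and in 10.2% of 11134 promoters, which were those of the tested protein-coding genes and the members. An E2F motif (TTNNCGC, with C or G at each N) was in 21.3% of the promoters and in 1 member, BMF, 92 to 86 bases before the start. A FOXO motif (GTAAACA or ATAAACA) was in 3.51% of the promoters and in 2 members, BCL2L11 at 223 to 217 bases before the start and BIK at 178 to 172. No match overlapped a match to another motif. For BCL2 all 250 bases before the canonical start are annotated exon, and for MCL1 128 of the 250 are. The canonical start of BCL2L2 (23776042) lies inside the gene, which begins at 23767999. The lack of a match in the window therefore does not cover sequence before other annotated starts. The matches are letters in a window and do not show that a factor is bound there.

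BCL2L11, on chromosome 2 (111876955 to 111926021, plus strand), had 374, 382 and 414 normalized counts in p21_OFF and 474, 453 and 441 in p21_ON. The groups did not overlap, with the lowest p21_ON library just above the highest p21_OFF library. The mean was 390.1 ± 21.03 in p21_OFF and 456 ± 16.6 in p21_ON (SD, n = 3 each). This corresponds to a log2 fold change of 0.23 with a standard error of 0.079 (95% interval 0.059 to 0.39, limma adjusted P = 0.0478). The call was lost without p21_OFF replicate 1 or 2 (adjusted P = 0.0817 and 0.124) and without p21_ON replicate 1, 2 or 3 (0.183, 0.0900 and 0.0776), with log2 fold changes of 0.20 to 0.25. DESeq2 on the reads did not call it (0.22, adjusted P = 0.102). edgeR called it with the filter on low values (0.22, adjusted P = 0.0447) and did not without the filter (0.21, adjusted P = 0.0678).

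BMF, on chromosome 15 (40380091 to 40401093, minus strand), was the BH3-only gene with the most reads. It had 1923, 1868 and 2206 normalized counts in p21_OFF and 2439, 2120.1 and 2355 in p21_ON. The groups overlapped, since p21_OFF replicate 3 lay above p21_ON replicate 2. The mean was 1999 ± 181 in p21_OFF and 2305 ± 165 in p21_ON (SD, n = 3 each). The log2 fold change was 0.21 with a standard error of 0.073 (95% interval 0.054 to 0.36, limma adjusted P = 0.0484). It was not called without p21_OFF replicate 2 (0.16, adjusted P = 0.181), p21_ON replicate 1 (0.16, adjusted P = 0.224) or p21_ON replicate 3 (0.19, adjusted P = 0.157). On the reads, DESeq2 (adjusted P = 0.0563) and edgeR with the filter on low values (adjusted P = 0.0513) did not call BMF. edgeR without the filter called it (0.19, adjusted P = 0.0264).

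**Figure D3:**
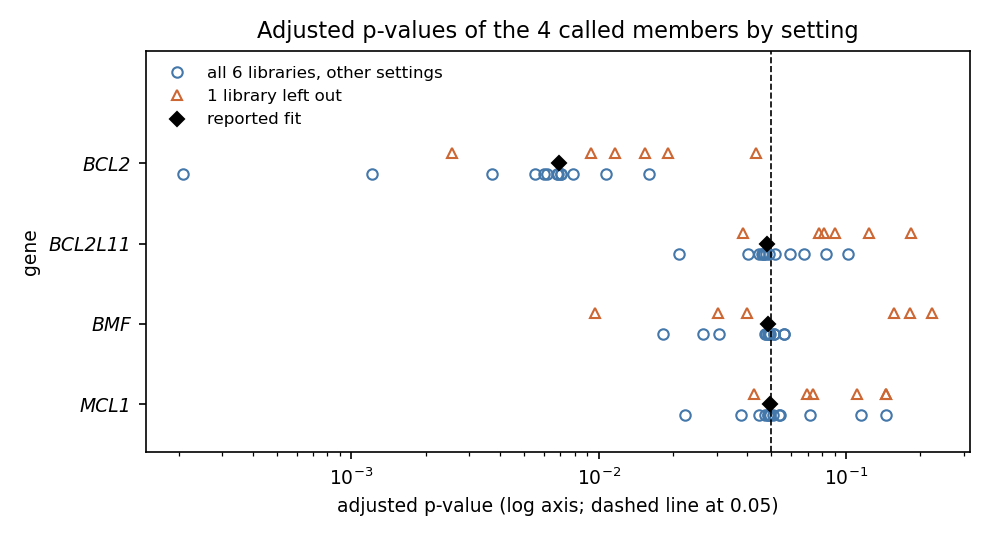
Adjusted P values (log axis) of the 4 called members in the reported limma fit (diamonds), under other settings with all 6 libraries (circles) and with a library left out (triangles), with a dashed line at 0.05. All points of BCL2 lie left of the line, and those of BCL2L11, BMF and MCL1 fall on both sides, up to 0.183, 0.224 and 0.145.

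BCL2L11, BMF and MCL1 ranked 2991, 3010 and 3037 by unadjusted P value among the 3074 genes called in either direction (23.2% of those tested), so their calls are among the last made. At an adjusted P value under 0.01, 1 member (BCL2) was higher and 0 were lower, where 4.65% and 6.65% of all genes tested were called. edgeR on the reads called BCL2 and BCL2L11 higher and no member lower, with 10.6% and 12.4% of all genes called. DESeq2 on the reads called BCL2 higher and MCL1 lower (adjusted P = 0.0376), with 8.13% and 11.4% of all genes called.

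Without p21_OFF replicate 1, 2 and 3 in turn, 2, 1 and 3 members were higher (10.4%, 9.29% and 11.2% of all genes) and 1, 0 and 0 were lower (12.2%, 10.4% and 12.5%). Without p21_ON replicate 1, 2 and 3 in turn, 1, 2 and 1 members were higher (5.24%, 8.65% and 5.58% of all genes) and none was lower (6.69%, 11.0% and 8.13%). BCL2 was the member called in each of these fits. No member was lower under scaling by library size alone, where 3 were higher (15.3% and 9.0% of all genes higher and lower), without a filter on low values, where 1 was higher (6.91% and 8.35%), or with the replicate number as a block, where 2 were higher (10.6% and 11.4%). edgeR with DESeq2 size factors (10.6% and 12.6%) and edgeR without a filter (8.56% and 10.7%) each called 2 members higher and none lower. Besides BCL2, the former called BCL2L11 and the latter BMF.

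The remaining BH3-only genes gave no call. BID, whose protein is cut by caspase-8 and so connects death receptors to mitochondria, lies on chromosome 22 (18216904 to 18257536, minus strand). It had 646, 625 and 579 normalized counts in p21_OFF and 501, 586 and 593 in p21_ON. The groups overlapped, with p21_ON replicate 1 the lowest library, and the log2 fold change was -0.14 (95% interval -0.31 to 0.031, adjusted P = 0.222 from limma). Without p21_ON replicate 1 it was -0.063. BAD, whose protein binds BCL2 and BCL-XL unless it is phosphorylated and held by 14-3-3 proteins, lies on chromosome 11 (64037302 to 64052176, minus strand). It had 654, 537 and 554 normalized counts in p21_OFF and 593, 554 and 652 in p21_ON, and the highest libraries of both groups were alike. The log2 fold change was 0.045 (95% interval -0.14 to 0.23, adjusted P = 0.741 from limma), and its sign turned without p21_OFF replicate 2 (-0.0096) or p21_ON replicate 3 (-0.017). In BAD, 23.7% of the exon sequence is shared with GPR137 on the opposite strand.

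BIK, on chromosome 22 (43506756 to 43525718, plus strand), encodes a BH3-only protein of the endoplasmic reticulum. It had 1, 4 and 1 reads in p21_OFF and 3, 3 and 7 in p21_ON, a mean below the 10 normalized counts required for a test. The ratio of the 13 p21_ON reads to the 6 p21_OFF reads, after division by the summed size factors, was 2.72 with an exact binomial 95% interval of 0.964 to 8.73, which covers counting error only. Without the filter the adjusted P value was 0.104 from limma and 0.232 from edgeR, so a difference was not detectable at this depth.

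To compare levels between genes, normalized counts were divided by the length of the canonical transcript in kilobases. In p21_OFF cells MCL1 had the highest level per kilobase (1252 ± 32.1, SD, n = 3), followed by BCL2L1 (786 ± 49.3), BAD (627 ± 68.0), BMF (426 ± 38.7), BID (283 ± 15.7), BCL2L2 (226 ± 3.49), BCL2L11 (76.5 ± 4.13), BAK1 (66.6 ± 2.13), BCL2 (19.8 ± 0.393) and BIK (1.79 ± 1.32). No neighbors in that order overlapped in the p21_OFF libraries. In p21_ON cells the order of the means was the same, and BID (230 to 272) and BCL2L2 (223 to 238) overlapped. With the union of all annotated exons as the length, BMF (367) stood above BAD (341), BCL2L2 (165) above BID (139) and BAK1 (65.3) above BCL2L11 (57.9) in p21_OFF, so these neighbors depend on the length used. BCL2 remained the lowest pro-survival gene with either length. As a share of the 4 pro-survival genes per kilobase of canonical transcript, MCL1 took 54.8% ± 1.72 in p21_OFF and 52.4% ± 0.686 in p21_ON (SD, n = 3 each), with overlap, and BCL2 took 0.866% ± 0.0064 and 1.34% ± 0.248, without overlap. The share of BCL2L2 was 9.89% ± 0.111 and 10.9% ± 0.533, also without overlap. That of BCL2L1 was 34.4% ± 1.82 and 35.4% ± 0.708, with overlap. BCL2, with the largest fold change of the 9 tested members, was thus a small part of the pro-survival transcript in both groups.

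Ratios of the reads of a pair of genes within a library do not depend on how libraries are scaled to each other. The log2 ratio of BCL2 to MCL1 was -5.21, -5.12 and -5.22 in p21_OFF and -4.69, -4.21 and -4.61 in p21_ON, a difference of 0.68. That of BCL2 to BCL2L1 differed by 0.57. That of BCL2L11 to MCL1 was -3.76, -3.65 and -3.59 in p21_OFF and -3.23, -3.32 and -3.29 in p21_ON, a difference of 0.38, and that of BMF to MCL1 differed by 0.37. In these 4 pairs the groups did not overlap. The log2 ratio of BID to MCL1 differed by 0.017 and its groups overlapped. Against BCL2, the log2 ratio of BCL2L11 differed by -0.30 and that of BMF by -0.32, both with overlap between the groups. The BCL2L11 and BMF transcripts therefore stood higher relative to MCL1 in every p21_ON library than in any p21_OFF library, and their ratios to BCL2 were not separated. The pairs over MCL1 set BCL2, BCL2L11 and BMF, which were called higher, over a gene called lower, so the choice of pairs favors separation. The share of all gene pairs without overlap was not computed. These ratios were formed from genes whose changes were known and are given as a description without a test.

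**Figure D4:**
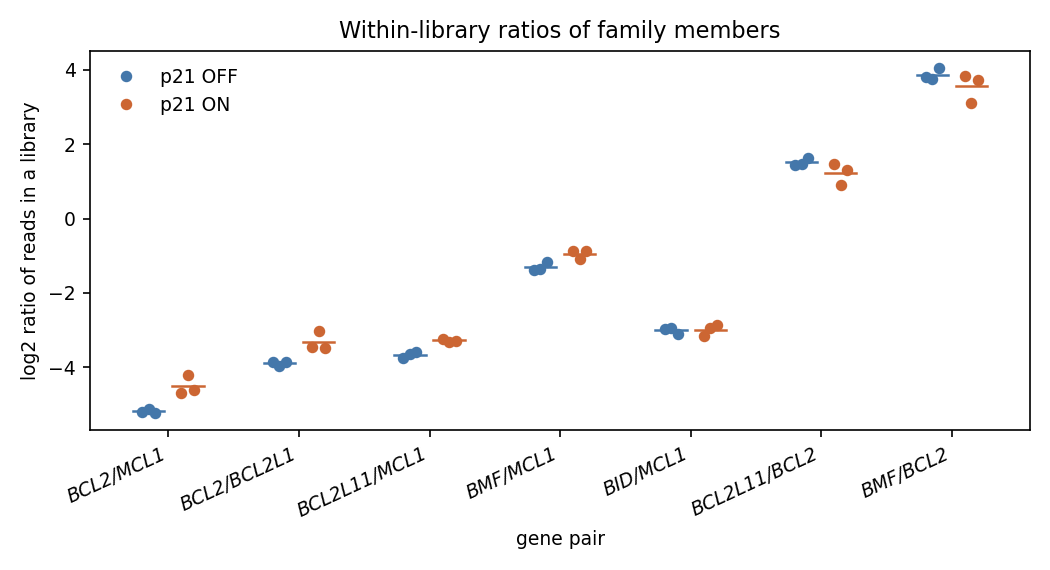
Log2 ratio of reads for 7 pairs of members in each library, with p21_OFF in blue, p21_ON in orange and a line at each group mean. The groups do not overlap for BCL2, BCL2L11 or BMF over MCL1 or for BCL2 over BCL2L1 (differences of 0.37 to 0.68), and they overlap for BID over MCL1 (0.017) and for both pairs with BCL2 as the denominator.

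Libraries differed in how levels related to gene length. The Spearman correlation across 11341 genes between a library's deviation from the mean of all libraries and the exon length of the gene was -0.40, -0.11 and 0.0059 in p21_OFF replicates 1 to 3 and 0.32, 0.20 and 0.12 in p21_ON replicates 1 to 3. Genes share libraries and are not independent, so no test was made. BCL2 has the longest exon sequence of the family (12612 bases) and BIK the shortest (951). With a length trend taken out of each library, an alternative chosen after seeing the data, the log2 fold change of BCL2 was 0.43 (adjusted P = 0.0159), that of MCL1 was -0.17 (adjusted P = 0.0224) and that of BMF was 0.21 (adjusted P = 0.0308), all past the threshold, and that of BCL2L11 was 0.21 (adjusted P = 0.0517). In that fit 2 members were called higher and 1 lower, with 11.2% and 13.4% of 11341 genes.

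The apoptosis pathway around the 10 members was described with 6 lists holding 58 further genes, of which 49 were tested. In p21_ON cells 4 of them were higher and 9 lower, against 10.5% and 12.7% of all genes, and their median log2 fold change was -0.085. The lists were written with earlier results of these data known. The counts of each list below stand against the same 10.5% and 12.7% of all genes.

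Among 13 other BCL2 family genes, 8 were tested, 1 was higher and 1 was lower. BOK, an effector related to BAX and BAK, rose by 1.17 on the log2 scale (standard error 0.29, limma adjusted P = 0.00701), with means of 9.98 ± 2.24 in p21_OFF and 23.6 ± 2.85 in p21_ON (SD, n = 3 each). It rested on 7 to 28 reads in a library. BCL2L12, an atypical member described as an inhibitor of apoptosis, had means of 943 ± 56.9 and 678 ± 28.2 (SD, n = 3 each) and fell by 0.48 on the log2 scale (standard error 0.071, limma adjusted P = 0.000111). The effector gene BAX (-0.041) and the BH3-only genes BBC3 (PUMA, 0.14) and PMAIP1 (NOXA, -0.13), did not pass the test, with adjusted P values of 0.713, 0.637 and 0.201 from limma. BCL2A1, BCL2L10, BCL2L14, BCL2L15 and HRK had at most 5.02 normalized counts in any library and were not tested.

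The list of partners of the member proteins held 14 tested genes, of which 1 was higher and 5 lower (10.5% and 12.7% of all genes), with a median of -0.14. DYNLL1, the dynein light chain to which BIM is tethered, fell by 0.50 on the log2 scale (standard error 0.076, limma adjusted P = 0.000136), with means of 2836 ± 334 in p21_OFF and 2000.3 ± 93.9 in p21_ON (SD, n = 3 each). The log2 ratio of BCL2L11 to DYNLL1 reads was -2.86 ± 0.25 in p21_OFF and -2.13 ± 0.082 in p21_ON (SD, n = 3 each), without overlap. That of BMF to DYNLL1 differed by 0.70 between the groups, also without overlap, although DYNLL1 is not the light chain that holds BMF. Both ratios set a gene called higher over DYNLL1, which was called lower, a choice that favors separation. They were formed from genes whose changes were known and are given as a description without a test. DYNLL2, the light chain that holds BMF, did not pass the test (0.022, limma adjusted P = 0.841) and its groups overlapped. It is named after its values were seen, and the ratio of BMF to DYNLL2 was not formed. The other 4 genes called lower were YWHAE (-0.37), a 14-3-3 gene, VDAC3 (-0.23), an outer membrane channel gene, and the 14-3-3 genes YWHAQ (-0.21) and YWHAZ (-0.17), both named after their values were seen. The limma adjusted P values of YWHAQ and YWHAZ were 0.0153 and 0.0380, and neither was followed under the other settings. HUWE1, which encodes a ubiquitin ligase of MCL1, was the gene called higher, by 0.32 on the log2 scale (standard error 0.091, limma adjusted P = 0.0158) and by 0.22 with the length trend taken out, although its groups overlapped. HUWE1 was not called without p21_ON replicate 1 (0.27, adjusted P = 0.103) or 3 (0.29, adjusted P = 0.102), and without p21_OFF replicate 1 it was called with a smaller value (0.20, adjusted P = 0.0124). VDAC3 was lost without p21_OFF replicate 1 (-0.15), p21_ON replicate 1 (-0.20) or p21_ON replicate 3 (-0.20), under library size scaling (-0.18) and with the length trend taken out (-0.16).

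Of the 9 apoptosome and caspase genes, CASP2, an initiator caspase, rose by 0.31 on the log2 scale (standard error 0.061, limma adjusted P = 0.00163), with means of 1593 ± 24.4 and 1974 ± 93.9 (SD, n = 3 each), and none was lower. APAF1 (0.13), the scaffold of the apoptosome, CYCS (-0.19), its cytochrome c, and CASP9 (0.065), its initiator caspase, did not pass the test, with adjusted P values of 0.223, 0.0581 and 0.573 from limma. The groups of CYCS did not overlap. CYCS was called lower with the length trend taken out (limma adjusted P = 0.0369) and without p21_OFF replicate 3 (limma adjusted P = 0.0417). edgeR without a filter also called CYCS lower (adjusted P = 0.0366). In 12 other alternatives with all libraries and 5 with a library left out it was not called. None of the 4 genes of factors released from mitochondria was called by limma, 1 of them at an unadjusted P value under 0.05. In the list of inhibitors of apoptosis, 5 genes were tested. BIRC5 (survivin), which also acts in mitosis as a member of the chromosomal passenger complex, had means of 4229 ± 144 and 1550.3 ± 97.4 (SD, n = 3 each) and fell by 1.45 on the log2 scale (standard error 0.063, limma adjusted P = 2.07e-11). BIRC6, a giant ubiquitin ligase gene, was higher by 0.34 (standard error 0.090, limma adjusted P = 0.0119) and by 0.23 with the length trend taken out, and was not called without p21_ON replicate 1 (0.28, adjusted P = 0.0904) or 3 (0.36, adjusted P = 0.0508). Without p21_OFF replicate 1 the value of BIRC6 was 0.20 (adjusted P = 0.00845). XIAP, the direct caspase inhibitor, did not pass (0.11, limma adjusted P = 0.371). Of 9 tested death receptor genes 2 were lower and none was higher: FAS, the receptor of FAS ligand, by -0.63 (standard error 0.18, limma adjusted P = 0.0191), and its adaptor FADD, by -0.27 (standard error 0.081, limma adjusted P = 0.0231). FAS was lost without p21_OFF replicate 1 (-0.51) or p21_ON replicate 1 (-0.55) and with DESeq2 (adjusted P = 0.0661). FADD was lost without p21_OFF replicate 2, p21_ON replicate 1 or p21_ON replicate 3 (-0.26, -0.28 and -0.24), under library size scaling (-0.22), with DESeq2 (adjusted P = 0.0522) and with the length trend taken out (-0.14, adjusted P = 0.227).

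**Figure D5:**
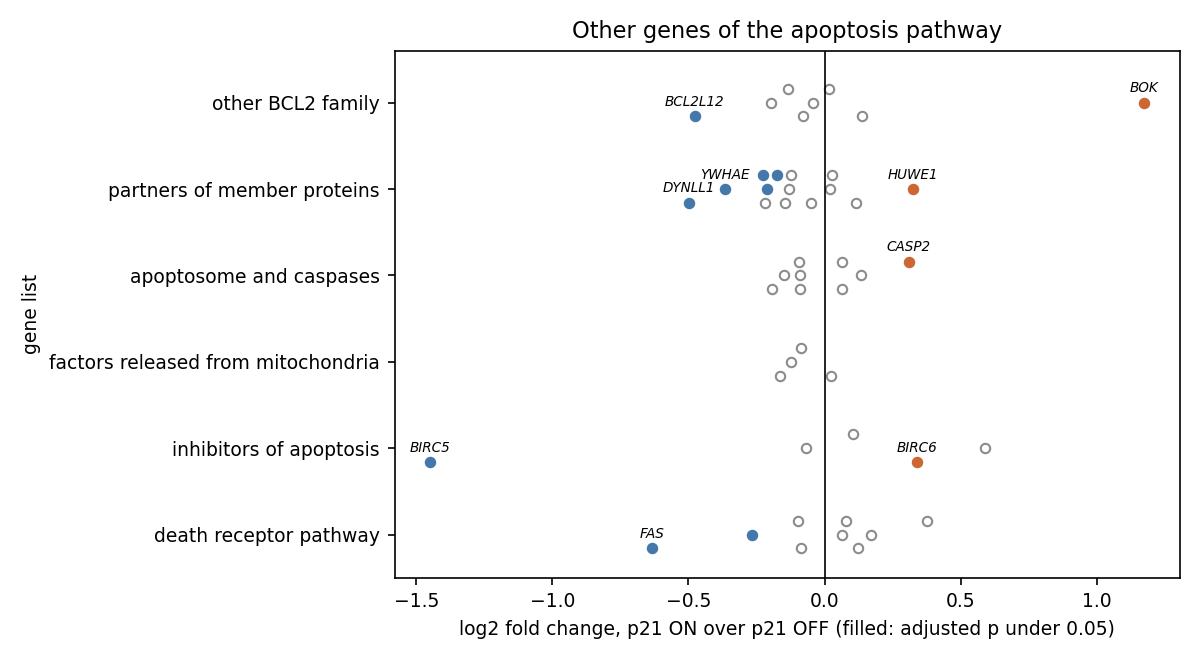
Log2 fold change of p21_ON over p21_OFF for the 49 tested genes of the 6 pathway lists, with filled points for an adjusted P value under 0.05 (orange higher, blue lower) and vertical offsets that only separate the points. BIRC5 (-1.45) and BOK (1.17) are the farthest from 0, and 36 of the 49 genes were not called.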

How the data were processed

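PolyA RNA of 6 SaOS-2 libraries was sequenced single-end from stranded mRNA libraries. Per the methods, STAR was used for mapping to hg19 and HTSeq for counting by gene name. The values deposited by the authors are a signal, the counts divided by size factors from DESeq2. Versions, annotation and strand setting are not given in the sources used here. In every library 100% of the values lay within 0.01 reads of a whole multiple of 1 step, which returned the reads.

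Genes with a mean of at least 10 normalized counts were tested with limma 3.58.1 (lmFit, eBayes with trend, no covariates) in R 4.3.3 on log2(value + 1), with Benjamini-Hochberg adjustment over all 13255 genes. This scale understates fold changes of low genes. The script was tested on simulated data. Alternatives used edgeR 4.0.16 (quasi-likelihood, TMM unless stated) and DESeq2 1.42.0 on recovered reads, library size and TMM scaling, pseudocounts of 0.1 and 10, other filters, an adjusted P value under 0.01, a replicate block and each library left out. edgeR without a filter and removal of a length trend were added after seeing the data.

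Gene positions, exon lengths and exon overlaps were read from a GENCODE annotation on GRCh37, which is the hg19 build. Genes were matched by symbol, 18910 of 23228 rows. The members and lists were chosen with earlier results of these data known. Named genes are all members, CDKN1A, up to 4 called genes with the largest change in each list, and BAX, BBC3, PMAIP1, APAF1, CYCS, CASP9 and XIAP, and some genes are not reported here. Replicates of a group differed by more than sampling noise (chi-square per gene 2.84 to 9.97, where sampling gives about 1), and none was counted as a copy.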

Additional observations from a re-analysis of the deposited data

How the results depend on the processing

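Leaving out a library in turn gave 695 to 1486 genes higher and 887 to 1660 lower, 1 to 3 members higher and 0 to 1 lower, and 2 to 5 pathway genes higher and 4 to 9 lower. At an adjusted P value under 0.01 there were 616 genes higher and 882 lower, 1 member higher and 0 lower, and 2 pathway genes higher and 4 lower. Members called higher were 1 without a filter on low values and 1 with DESeq2. Members called lower were 0 under library size scaling, without a filter, with the replicate block, with edgeR under TMM, under DESeq2 size factors and without a filter. The stricter threshold acts by construction, and for the other settings the cause was not tested. Under library size scaling the median log2 fold change over all genes was 0.050, with 2034 genes higher and 1194 lower against 1393 and 1681.

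BAX turned to 0.0025 under library size scaling and 0.047 with the length trend taken out, and ranged from -0.11 to 0.016 with a library left out, BAK1 from -0.11 to 0.076 and BAD from -0.017 to 0.13, none of them called in any fit. Over 14 alternatives with all libraries, 108 results of the 9 members kept direction and call, 18 lost the call and 0 turned. Members that were not called in the reported fit count as kept where they again had no call. The lost calls were those of BCL2L11 (6), BMF (5) and MCL1 (7). With a library left out, 37 results were kept, 13 lost the call and 4 turned. Same-numbered libraries of the groups did not deviate together (correlations -0.057, -0.025 and -0.048). The labels do not say whether the numbers mark pairs. These correlations cannot decide it, since each group mean rests on few libraries. With the replicate block 1407 genes were higher and 1513 lower, BCL2 (adjusted P = 0.00121) and BMF (0.0488) were called and MCL1 (0.115) and BCL2L11 (0.0835) were not.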

Other observations

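Some genes of the pathway lists lay just outside the threshold or the filter, and are named here after their values were seen. BIRC3, an inhibitor of apoptosis induced by NF-kB, had 27.3 ± 4.05 normalized counts in p21_OFF and 41.7 ± 7.47 in p21_ON (SD, n = 3 each), without overlap (log2 fold change 0.59, limma adjusted P = 0.0534). BNIP3, a mitochondrial gene of hypoxia and mitophagy, had 756 ± 48.3 and 659 ± 21.2 normalized counts (SD, n = 3 each), without overlap (log2 fold change -0.20, limma adjusted P = 0.0557). NAIP, an inhibitor of apoptosis gene with near-identical copies in the genome that counting may split, had 4 to 6 reads in a p21_OFF library and 0 to 1 in a p21_ON library, below the filter.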
